A study of Mus musculus with 6 samples.

Results

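Mitosis is run by a set of genes that cells switch on late in the cell cycle. Cyclins A and B activate the kinase CDK1, and Polo-like and Aurora kinases then build the spindle and correct its attachments. Kinetochore proteins and kinesin motors hold and move the chromosomes. The spindle checkpoint restrains CDC20 and the anaphase-promoting complex (APC/C) until every chromosome is attached, and the cytokinesis proteins then cut the cell apart. Most of these messages are made in G2 and M and are low in cells that have left the cycle, so in a cultured stromal cell population they are widely read as a sign of how much the culture is dividing. Their transcription is held down by the DREAM complex and driven by the MuvB core with B-MYB and FOXM1, through the cell cycle homology region (CHR) of their promoters, often beside CCAAT boxes bound by NF-Y.

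The 41 mitosis and G2/M genes described here were taken by symbol from a fixed list, chosen with earlier results of these data known. All 41 were found among the 15063 genes listed in each library. RNA-seq was done on mesenchymal stem cells (MSCs), the plastic-adherent stromal progenitors of bone, cartilage and fat, grown from the bone marrow of mice of 3 weeks of age. The WT group had 3 libraries, of which libraries 1 and 3 came from passage 5 cultures and library 2 from a passage 7 culture. The CKO group had 3 libraries of the same cells from animals labelled as conditional knockouts for Mapk7, the gene for the MAP kinase ERK5, all from passage 5. The promoter that drives the recombinase, and any floxed allele in the WT mice, are not stated in the labels. Separate litters or days of culture within a group are not stated, so the p-values cover the spread among these 6 libraries and no more. Values are in RPKM, reads scaled to gene length and to the reads of the library, and by library they are always given in the order of libraries 1, 2 and 3.

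The libraries rested on 17351907 to 20689481 reads. Mapk7, the targeted gene, was listed at 7.12 RPKM (library 1), 6.76 (library 2) and 9.07 (library 3) in the WT group and at 5.59, 3.84 and 5.45 RPKM in the CKO group. The groups did not overlap, as for 16.7% of all genes tested, and transcripts of the gene were present in every CKO library. A value per gene does not show which exons these reads came from. The log2 difference of −0.54 did not pass the test over all genes (limma adjusted p = 0.505). The 14 stromal markers summed to 3929 to 7519 RPKM in the 6 libraries, most of it from collagen genes, with Col1a1 at 1126 RPKM or more in each. Not all stromal markers were high: Lepr was at 0.0147 to 0.311 RPKM, and Pdgfra was at 1.01 RPKM in CKO library 2 and at 9.82 to 32.3 RPKM elsewhere. Macrophage transcripts were also present in all of them, as given with the results they move with. The 6 endothelial markers were under 1 RPKM in every library, and the 2 lymphocyte and 3 erythroid markers listed summed to at most 0.411 and 1.77 RPKM. The 4 granulocyte markers listed summed to 4.45, 0.161 and 3.04 RPKM in WT libraries 1 to 3 and to 3.02, 0.391 and 7.97 RPKM in CKO libraries 1 to 3. WT libraries 1 and 2 carry the same animal number in their descriptions, yet the 4 Y-linked genes looked at were near 0 in library 1 only: Ddx3y was at 0.0357 RPKM there and at 19.1 RPKM in library 2. The values thus go against a shared animal. For WT library 3, the description and the file header name different animals.

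The promoters of the mitotic genes are shown first. The genes were taken by symbol and not by sequence, but genes of this class are known for CHR and CCAAT elements. High shares of these elements are therefore not an independent result. RefSeq promoters (build GRCm38.p6, 250 bases before to 50 bases after a transcription start) were matched by symbol for 36 of the 41 genes, which gave 39 promoters. The 6 stretches printed here are the 120 bases that end at the start, on the gene's strand. Each belongs to the most highly expressed gene of its role whose stretch holds a CHR motif within 60 bases of the start and a CCAAT box, and overlaps annotated exons by at most 30 bases. Capitals mark the CHR motif (TTTGAA on either strand, that is TTTGAA or TTCAAA, or the variants TTTAAA and TTCGAA) and the CCAAT box (CCAAT or ATTGG, which is CCAAT on the other strand). A CHR motif and a CCAAT box can share at most 1 base. The genes shown are Cdk1, the kinase of mitotic entry (chr10:69352913-69353032, minus strand), Cdc20, the activator of the APC/C (chr4:118437344-118437463, minus strand), Kif11, the motor that pushes the spindle poles apart (chr19:37376262-37376381, plus strand), Ckap2l, a spindle protein (chr2:129297213-129297332, minus strand), Prc1, the bundler of the spindle midzone (chr7:80294356-80294475, plus strand, 1 of its 2 listed starts), and Top2a, the topoisomerase that untangles sister DNA (chr11:99024190-99024309, minus strand).
Cdk1: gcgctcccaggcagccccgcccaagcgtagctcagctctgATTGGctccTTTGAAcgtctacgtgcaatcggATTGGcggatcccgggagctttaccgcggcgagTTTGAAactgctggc
Cdc20: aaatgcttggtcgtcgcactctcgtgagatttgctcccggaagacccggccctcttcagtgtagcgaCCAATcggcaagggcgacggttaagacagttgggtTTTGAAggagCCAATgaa
Kif11: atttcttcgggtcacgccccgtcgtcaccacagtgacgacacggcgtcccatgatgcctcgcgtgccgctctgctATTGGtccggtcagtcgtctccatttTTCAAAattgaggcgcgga
Ckap2l: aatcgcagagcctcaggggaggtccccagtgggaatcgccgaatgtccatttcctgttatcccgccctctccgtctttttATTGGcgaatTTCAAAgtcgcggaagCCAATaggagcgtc
Prc1: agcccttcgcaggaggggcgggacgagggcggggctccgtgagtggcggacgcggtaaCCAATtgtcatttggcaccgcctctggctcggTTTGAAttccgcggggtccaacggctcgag
Top2a: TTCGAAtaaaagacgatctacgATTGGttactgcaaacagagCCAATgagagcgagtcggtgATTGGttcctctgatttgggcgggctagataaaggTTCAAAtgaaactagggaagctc

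The same arrangement was common among the mitotic genes. A CHR motif lay in 35 of their 39 promoters (89.7%), against 28.8% of all 32851 RefSeq promoters of the same length. From 60 bases before to 50 bases after the start, it lay in 30 (76.9%), against 9.5% of all promoters. A CCAAT box was present in 31 (79.5%, against 37.4%), and 22 (56.4%, against 11.7%) had 2 or more. A CHR motif near the start together with 2 or more CCAAT boxes was found in 48.7% of the mitotic promoters and in 1.1% of all promoters. The promoters without the CHR letters in the window were those of Cks2, Mad2l1, Nuf2 and Nusap1, and the first listed promoters of Birc5, Kif2c, Ckap2 and Mki67 had them only further upstream. In other lists of the cell cycle, the motif was near the start in 47.5% of the promoters of other mitotic genes. It was near the start in 14.7% of those of DNA replication and G1/S genes. In the list of APC/C subunits, which also held the partners Fzr1 and Ube2s, it was in none (0.0%) of the 15 promoters. These shares describe the sequences, the set of all promoters was not matched for expression, and a match is not a bound site.

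**Figure D1:**
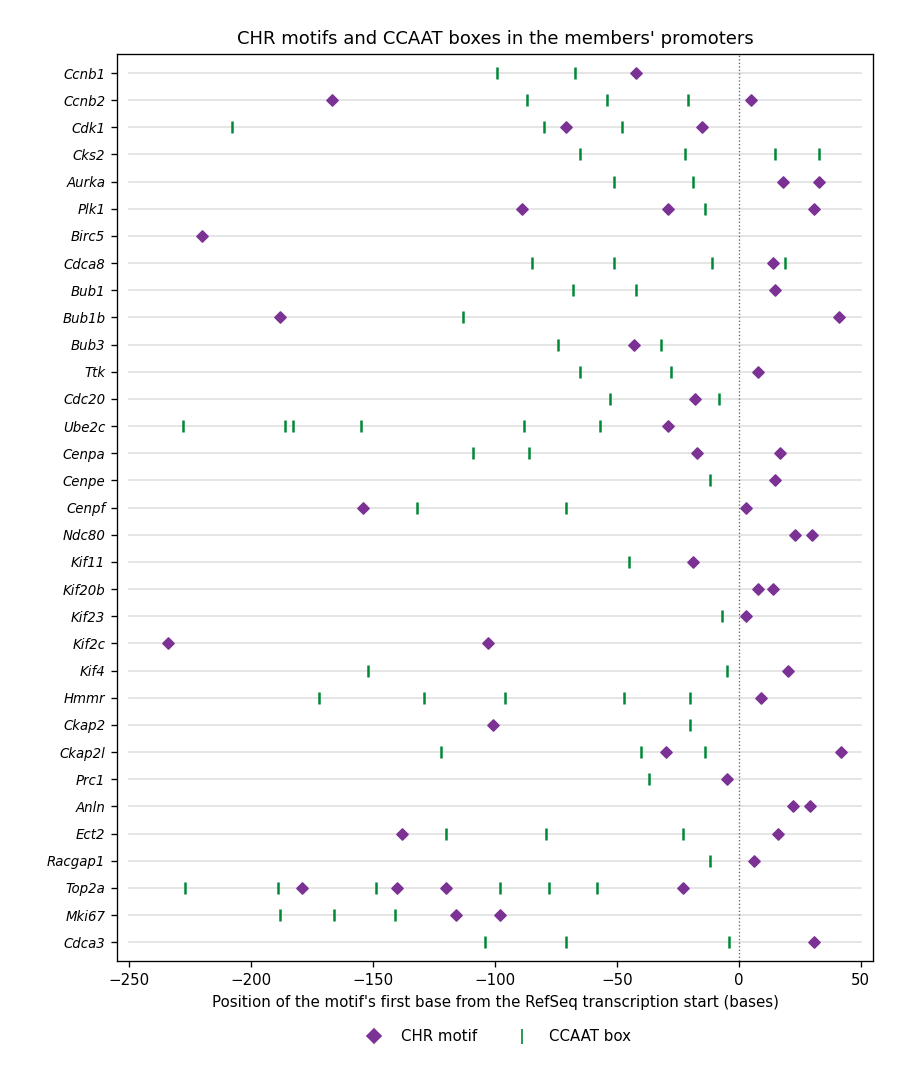
Position of each CHR motif (purple diamonds) and CCAAT box (green bars) in the first RefSeq promoter of the 33 matched genes that hold either, from 250 bases before to 50 bases after the transcription start (dotted line). Most CHR motifs sit close to the start, with CCAAT boxes upstream of them, while Birc5, Kif2c, Ckap2 and Mki67 have the CHR motif only further upstream. Mad2l1, Nuf2 and Nusap1 had neither motif and are not drawn.

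No mitotic gene differed between the genotypes beyond the spread of the libraries. None of the 41 passed limma's adjusted threshold of 0.05 in either direction (0.00902% of the 11085 genes tested were called), and the lowest adjusted p among them was 0.621. None had an unadjusted p under 0.05, which 9.74% of all genes tested had, and a limma-voom fit on the reads also gave 0 at either threshold. In none did the CKO libraries all lie on one side of the WT libraries, as they did for 16.7% of all genes. Yet all 41 log2 differences, taken on log2(RPKM + 1), were above 0, against 53.7% over all genes, with a median of 0.88 (0.20 to 1.81) against 0.03 over all genes. That common sign was lost on leaving out WT library 2, the passage 7 culture. Without that library, 10 genes were above 0 and 31 below. The median was then −0.17 (−0.54 to 0.34), against −0.02 over all genes, 53.1% of which were below 0. Again no gene passed (0% of all genes were called, and 5.88% had an unadjusted p under 0.05). None had an unadjusted p under 0.05, none had groups that did not overlap, against 20.3% of all genes, and every limma adjusted p was 1.

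**Figure D2:**
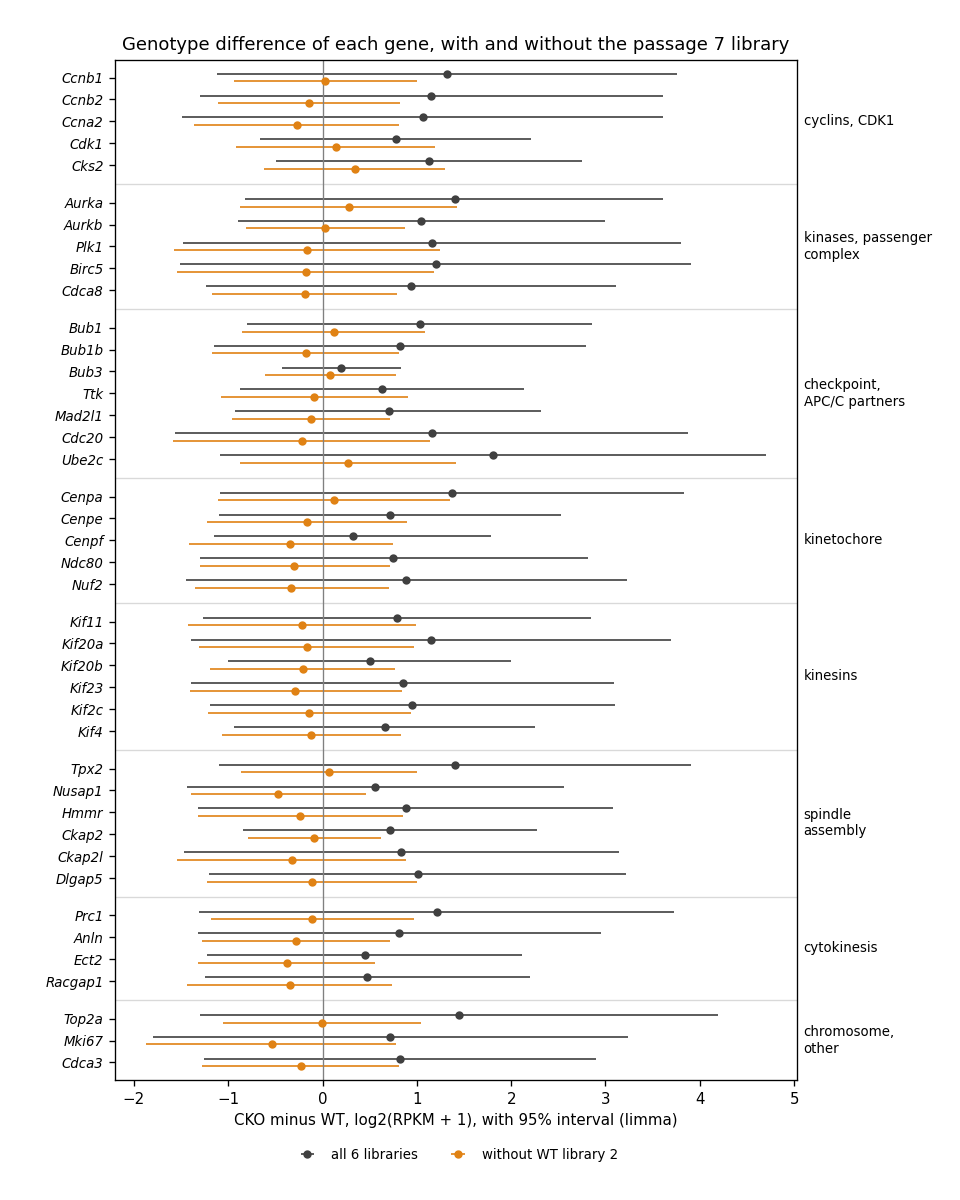
Log2 difference of CKO minus WT for each of the 41 genes on the log2(RPKM + 1) scale, with its 95% interval from limma, over all 6 libraries (black) and without WT library 2 (orange). Every interval includes 0. The black points all lie above 0 (median 0.88), and 31 of the 41 orange points lie below it (median −0.17).

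The mitotic genes were far lower in the passage 7 library than in any other. WT library 2 had the lowest value of the 6 libraries for 41 of 41 genes, against 36.8% of all genes tested. It was more than 10-fold under the lowest other library for 32 of them, against 1.35% of all genes. The 41 genes were chosen with earlier results of these data known, so these counts are a description and not independent evidence. The median over the genes of the ratio between the middle passage 5 value and the passage 7 value was 33. Summed over the 41 genes, expression was 1005, 73.9 and 589 RPKM in the WT group and 1014, 884 and 453 RPKM in the CKO group. With 1 library at passage 7, and that one WT, no test of passage is possible, and passage, culture and animal cannot be told apart. In bulk RNA, fewer dividing cells and less mitotic RNA per cell cannot be told apart either. The depth behind these low values was 7 to 1666 reads per gene in WT library 2, so the lowest of them carry a wide counting error.

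**Figure D3:**
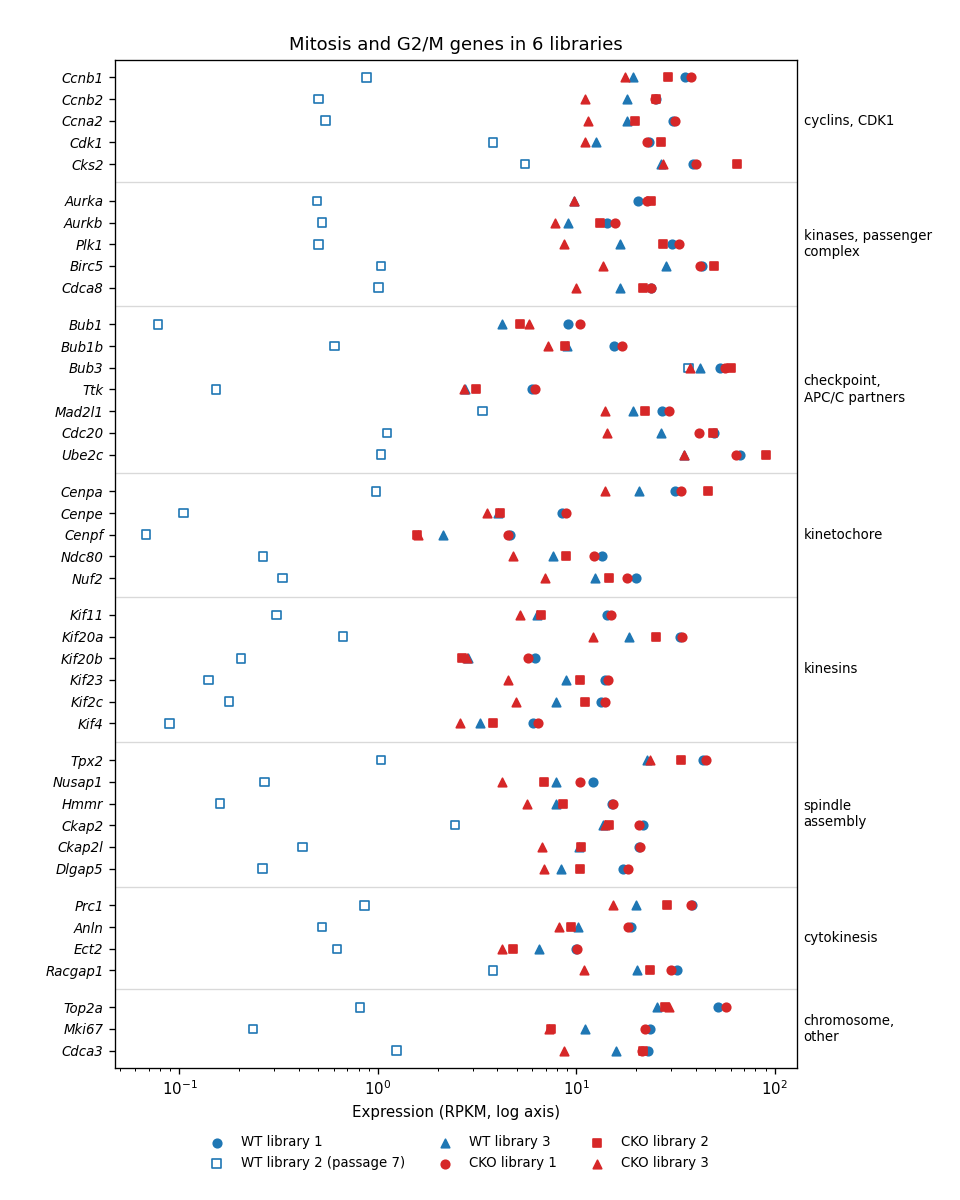
RPKM (log axis) of the 41 genes by role in each of the 6 libraries: WT in blue, CKO in red, with circles, squares and triangles for libraries 1, 2 and 3, and an open square for WT library 2 (passage 7). The open squares lie to the left of every other symbol of their gene, by more than 10-fold for 32 genes, and only Bub3 has its open square beside the rest.

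Among the cyclins, CDK1 and its cofactor, the highest levels belonged to Cks2 and Ccnb1. Cks2, a small subunit that binds CDK1, was at 38.9, 5.5 and 26.8 RPKM in the WT group (23.8 ± 16.9, mean ± SD, n = 3) and at 39.9, 64.7 and 27.2 RPKM in the CKO group (44.0 ± 19.1). Its highest value was in CKO library 2 and the groups overlapped. The log2 difference was 1.13 (95% interval −0.49 to 2.75) over 6 libraries and 0.34 (−0.62 to 1.30) without WT library 2. Ccnb1, cyclin B1, was at 35.5, 0.877 and 19.3 RPKM in the WT group (18.6 ± 17.3) and at 37.8, 28.9 and 17.6 RPKM in the CKO group (28.1 ± 10.1). Both libraries numbered 1 were high, WT library 3 and CKO library 3 were about equal, and library 2 of WT alone was low. The difference moved from 1.32 (−1.12 to 3.76) to 0.03 (−0.94 to 1.00) without it. Ccnb2 and Ccna2, the other mitotic cyclins, followed the same order of WT libraries, with 0.502 and 0.544 RPKM in WT library 2. Cdk1 itself, which is needed through the whole of late cycle, stood closer to the rest there, at 3.8 RPKM, or 2.93-fold under the lowest passage 5 library. In CKO library 2 it stood at 26.7 RPKM, its highest value.

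The mitotic kinases and the chromosomal passenger complex, which places Aurora B on centromeres, were at about 1 RPKM or less at passage 7. Birc5, survivin, was at 43.2, 1.04 and 28.2 RPKM in the WT group (24.2 ± 21.4) and at 42.2, 49.6 and 13.7 RPKM in the CKO group (35.2 ± 19.0). The passage 5 values spread 3.63-fold, and both extremes of that spread were CKO libraries. Its difference of 1.20 (−1.51 to 3.91) became −0.18 (−1.54 to 1.18) without WT library 2. Plk1, the Polo-like kinase of mitotic entry, was at 30.2, 0.502 and 16.7 RPKM in the WT group (15.8 ± 14.9) and at 32.9, 27.5 and 8.63 RPKM in the CKO group (23.0 ± 12.7). CKO library 3 was the lowest passage 5 library for Plk1, 3.81-fold under the highest. The difference was 1.16 (−1.48 to 3.80), and −0.16 (−1.57 to 1.25) without WT library 2. For Aurka, Aurkb and Cdca8, the passage 5 values lay between 7.8 and 23.8 RPKM and the passage 7 values between 0.494 and 1.01 RPKM.

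The spindle checkpoint and APC/C partners held the gene with the highest single value, and the genes with the widest and narrowest gaps between WT library 2 and the lowest passage 5 library. Ube2c, the ubiquitin-conjugating enzyme that works with the APC/C, was at 66.9, 1.04 and 34.9 RPKM in the WT group (34.3 ± 32.9) and at 64.0, 90.2 and 34.9 RPKM in the CKO group (63.0 ± 27.7). Libraries numbered 3 were alike in both genotypes. Its difference, the largest of the 41, was 1.81 (−1.09 to 4.70), and 0.27 (−0.87 to 1.42) without WT library 2. Bub3, a checkpoint protein, was at 52.9, 36.7 and 42.2 RPKM in the WT group (43.9 ± 8.26) and at 56.0, 60 and 37.4 RPKM in the CKO group (51.2 ± 12.1). For this gene WT library 2 was only 1.02-fold under the lowest passage 5 library, CKO library 3. Its difference was 0.20 (−0.43 to 0.83), the smallest of the 41, although the first of its 2 listed promoters holds a CHR motif and CCAAT boxes near the start. Bub1, the kinase that works beside BUB3, was by contrast at 0.078 RPKM in WT library 2 (7 reads) and at 4.21 to 10.5 RPKM at passage 5, the lowest of which was 54-fold above it. Cdc20 was at 1.11 RPKM in WT library 2 and at 14.3 to 49.3 RPKM at passage 5. Mad2l1, which forms the checkpoint signal that binds CDC20, was at 3.36 RPKM there, 4.15-fold under the lowest passage 5 library. Bub1b and Ttk, both checkpoint kinase genes, were at 0.604 and 0.153 RPKM in WT library 2.

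The kinetochore genes were all under 1 RPKM at passage 7. Cenpa, the centromeric histone, was at 31.6, 0.977 and 20.7 RPKM in the WT group (17.8 ± 15.5) and at 33.6, 46.0 and 13.9 RPKM in the CKO group (31.2 ± 16.2). The WT passage 5 libraries lay within the range of the CKO libraries. Its difference was 1.37 (−1.09 to 3.83), and 0.12 (−1.11 to 1.35) without WT library 2. Nuf2, a part of the NDC80 complex that grips microtubules, was at 19.9, 0.331 and 12.4 RPKM in the WT group (10.9 ± 9.87) and at 18.1, 14.6 and 6.99 RPKM in the CKO group (13.2 ± 5.69). Its highest value was a WT library and its lowest passage 5 value a CKO library. The difference changed from 0.89 (−1.45 to 3.23) to −0.33 (−1.35 to 0.70). Ndc80, Cenpe (a kinetochore motor) and Cenpf (a large kinetochore protein) were at 0.264, 0.105 and 0.068 RPKM in WT library 2, and at 1.58 to 13.5 RPKM at passage 5.

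The 6 mitotic kinesins were each more than 10-fold lower in WT library 2 than in every other library. Kif20a, which moves the passenger complex to the midzone, was at 33.2, 0.668 and 18.5 RPKM in the WT group (17.5 ± 16.3) and at 34, 25.2 and 12.1 RPKM in the CKO group (23.8 ± 11). Kif23, the motor of centralspindlin, was at 13.9, 0.14 and 8.84 RPKM in the WT group (7.64 ± 6.97) and at 14.4, 10.5 and 4.55 RPKM in the CKO group (9.80 ± 4.95). In both, libraries numbered 1 were highest and CKO library 3 was the lowest at passage 5. The differences were 1.15 (−1.39 to 3.69) for Kif20a and 0.85 (−1.39 to 3.09) for Kif23, and without WT library 2 they were −0.17 (−1.31 to 0.97) and −0.29 (−1.41 to 0.84). Kif11, Kif20b, Kif2c and Kif4 had 0.0893 to 0.309 RPKM in WT library 2 and 2.59 to 14.9 RPKM at passage 5. Without WT library 2, all 6 kinesin differences were below 0 (−0.29 to −0.12), and none passed.

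Of the spindle assembly factors, Tpx2, which activates Aurora A on the spindle, was at 43.5, 1.04 and 22.8 RPKM in the WT group (22.4 ± 21.2) and at 45.2, 33.9 and 23.6 RPKM in the CKO group (34.2 ± 10.8). It had one of the narrowest spreads at passage 5, 1.99-fold, and its difference was 1.40 (−1.10 to 3.91), or 0.07 (−0.86 to 1.00) without WT library 2. Ckap2, a microtubule-binding protein, was at 21.8, 2.45 and 13.7 RPKM in the WT group (12.6 ± 9.73) and at 20.7, 14.7 and 14.0 RPKM in the CKO group (16.5 ± 3.67). It stood closer to passage 7 than its relative: its lowest passage 5 value was 5.56-fold above WT library 2, and that of Ckap2l 16-fold. The Ckap2 difference was 0.72 (−0.84 to 2.27), and −0.09 (−0.79 to 0.62) without WT library 2. Hmmr, a spindle pole protein, was at 0.16 RPKM in WT library 2 and at 5.63 to 15.4 RPKM at passage 5. Nusap1 and Dlgap5, which stabilise spindle microtubules, were at 0.269 and 0.262 RPKM there.

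Among the cytokinesis genes, Prc1 was at 38.1, 0.855 and 20.1 RPKM in the WT group (19.7 ± 18.6) and at 37.8, 28.8 and 15.4 RPKM in the CKO group (27.4 ± 11.3). Racgap1, the centralspindlin partner that acts on RHOA, was at 32.3, 3.81 and 20.2 RPKM in the WT group (18.7 ± 14.3) and at 30.1, 23.5 and 10.9 RPKM in the CKO group (21.5 ± 9.73). The order of the 6 libraries was the same for both genes, but WT library 2 was 18-fold under the lowest passage 5 library for Prc1 and 2.87-fold for Racgap1. Their differences were 1.21 (−1.31 to 3.73) and 0.47 (−1.25 to 2.20), and −0.11 (−1.18 to 0.97) and −0.35 (−1.44 to 0.74) without WT library 2. Ect2, the exchange factor that RACGAP1 recruits, was at 0.624 RPKM in WT library 2 against 4.23 to 10.1 RPKM at passage 5, and Anln, the ring scaffold anillin, was at 0.523 RPKM there.

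In the last group, Top2a was at 51.9, 0.812 and 25.4 RPKM in the WT group (26.1 ± 25.6) and at 57.1, 28.0 and 29.4 RPKM in the CKO group (38.2 ± 16.4). Its difference of 1.45 (−1.30 to 4.19) became −0.01 (−1.06 to 1.04) without WT library 2. Cdca3, a part of the ubiquitin ligase machinery of mitotic entry, was at 22.9, 1.24 and 15.8 RPKM in the WT group (13.3 ± 11) and at 21.5, 21.7 and 8.68 RPKM in the CKO group (17.3 ± 7.46). WT library 1 was the highest and the CKO values lay on both sides of WT library 3. The difference was 0.82 (−1.26 to 2.90), or −0.23 (−1.28 to 0.81) without WT library 2. Mki67, the proliferation marker Ki-67, was at 0.235 RPKM in WT library 2, and at passage 5 it spread from 7.31 RPKM in the CKO group library 3 to 23.4 RPKM in WT library 1. Its difference without WT library 2, −0.54 (−1.87 to 0.78), was the lowest of the 41.

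The passage 5 libraries also differed among themselves, and did so within each genotype. WT library 1 and CKO library 1 were nearly equal over the mitotic genes: the median log2 difference of CKO library 1 from WT library 1 was 0.03, with 25 genes above 0 and 16 below. WT library 3 was under WT library 1 in 41 of 41 genes (median −0.81), and so was CKO library 3 (median −1.12). CKO library 2 lay between (median −0.42, with 8 genes above 0). The highest value of a gene was in CKO library 1 for 21 genes, in WT library 1 for 12 and in CKO library 2 for 8. The second lowest, after WT library 2, was CKO library 3 for 33 genes, WT library 3 for 6 and CKO library 2 for 2. Macrophage markers moved with this order in part. The 22 of 23 that were listed were all above 0 in each library and summed to 1187, 888 and 2497 RPKM in the WT group and 820, 463 and 3800 RPKM in the CKO group. Lyz2 made up most of each sum, with 1590 RPKM in WT library 3 and 2948 RPKM in CKO library 3. The mean log2(RPKM + 1) of the 22 was also highest in these libraries (4.93 and 4.78, against 2.60 to 3.78 elsewhere). Single markers went both ways: in CKO library 3 and WT library 1, Itgam was at 50.5 and 6.56 RPKM and Csf1r at 10.2 and 12.7 RPKM. The libraries with the highest sums, WT library 3 and CKO library 3, were those lowest in mitotic genes at passage 5, while WT library 2, with by far the lowest mitotic sum, had 888 RPKM. Stromal sums were 7125, 6040 and 6391 RPKM in the WT group and 7519, 4695 and 3929 RPKM in the CKO group. The part of these cell types in the mitotic values was not tested.

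CKO library 2 differed from the others by a pattern along gene length. Cks2, Ube2c, Cenpa and Birc5, the 4 shortest of the mitotic genes, had their highest values there, with Cks2 at 1.62-fold and Ube2c at 1.41-fold of CKO library 1. Mki67 and Cenpf, the longest at 10079 and 11365 bases, were at 0.335-fold and 0.35-fold of CKO library 1. Against WT library 1, the 10 shortest genes (694 to 2148 bases) had a median difference of −0.00 in CKO library 2 and the 10 longest (4349 to 11365 bases) one of −0.93. Spearman's rho between length and this difference over the 41 genes was −0.82, a description of 1 pair of libraries. The trend ran over all genes as well: over the 11060 tested genes with a recovered length rho was −0.50, and the median difference went from 0.42 in the 2213 shortest genes to −0.50 in the 2211 longest. With each library's trend over all genes removed, rho over the mitotic genes was −0.40, and the medians of the 10 shortest and 10 longest were −0.27 and −0.55. WT library 3 had a weaker slope of the same sign (rho −0.50, and 0.05 with the trend removed), and CKO libraries 1 and 3 had rho of 0.04 and −0.02 (−0.34 and −0.05 with the trend removed). The genotype comparison was little moved: with the trend removed, the median difference was 0.86 over 6 libraries and −0.14 without WT library 2.

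**Figure D4:**
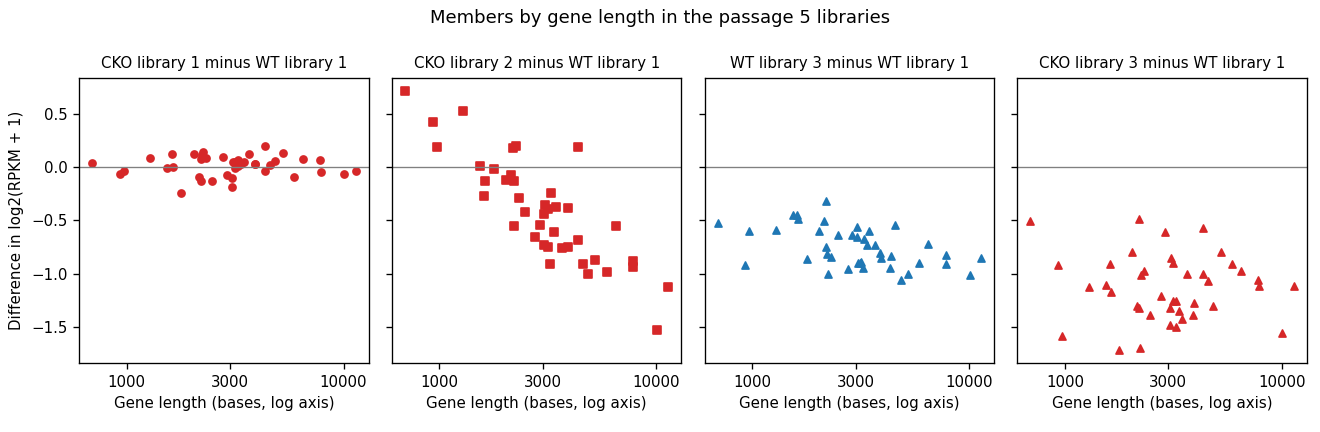
Difference in log2(RPKM + 1) of each passage 5 library from WT library 1 against gene length (log axis) for the 41 genes, 1 point per gene. The points fall with length in CKO library 2 (rho −0.82) and, less, in WT library 3 (rho −0.50), are flat near 0 in CKO library 1, and are flat near −1.12 in CKO library 3.

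Other parts of the cell cycle machinery were read in the same way, to place the low passage 7 values. These lists, like the 41 genes, were chosen with earlier results of these data known. Of 65 other mitotic genes tested, none passed, 63 were above 0 with a median difference of 0.59, and the median was −0.07 without WT library 2. WT library 2 was the lowest for 64 of them, against 36.8% of all genes, and more than 10-fold under the others for 22, against 1.35%. The 3 with the lowest p were Zwint, a kinetochore protein, Cks1b, a relative of Cks2, and Cdc25a, a phosphatase that activates cyclin-dependent kinases. Zwint was at 24.3, 11.8 and 20.1 RPKM in the WT group and 27.3, 50 and 40 RPKM in the CKO group, with no overlap (limma adjusted p = 0.375). It was the only one of the 65 without overlap, against 16.7% of all genes. Cks1b was at 39.9 to 84.1 RPKM in the WT group and 79.3 to 143 RPKM in the CKO group, and Cdc25a at 2.34 to 7.42 RPKM and 6.48 to 9.02 RPKM, and both overlapped.

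The 35 DNA replication and G1/S genes, which act before mitosis, had a smaller median gap at passage 7, but not every gap was smaller. The widest gap of this list, between WT library 2 and the lowest passage 5 library, was 69.2-fold, against 54-fold among the mitotic genes. WT library 2 was lowest for 33 of the 35, against 36.8% of all genes, and more than 10-fold under the others for 3, against 1.35% of all genes. The median ratio of the middle passage 5 value to that of WT library 2 was 5, against 33 for the mitotic genes. None passed between genotypes (median 0.56, and −0.00 without WT library 2). Ccne1, cyclin E1 of the G1/S step, was at 16.2, 3.24 and 7.81 RPKM in the WT group and 16.3, 22 and 14.0 RPKM in the CKO group. Mcm7, of the replicative helicase, was at 5.5 RPKM in WT library 2 and at 21.2 to 41.1 RPKM elsewhere, and Gins1, which works with that helicase, was at 0.482 RPKM and 2.84 to 4.05 RPKM.

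Of the 15 genes of the MuvB, B-MYB and FOXM1 list, WT library 2 was the lowest for 10, against 36.8% of all genes. Foxm1, the factor that drives G2/M transcription, was at 14.9, 0.498 and 7.90 RPKM in the WT group and 14.8, 8.38 and 6.09 RPKM in the CKO group. Mybl2, which encodes B-MYB, was at 4.77, 0.129 and 2.22 RPKM in the WT group and 4.20, 3.82 and 2.17 RPKM in the CKO group. Both were more than 10-fold lower in WT library 2 than in any other, as were 32 of the 41 mitotic genes. They were the only 2 of the 15 with such a gap, and the median ratio over the list was 1.63. Rbl2, which encodes the DREAM pocket protein p130, went the other way, at 19.9 RPKM in WT library 2 and 3.97 to 9.15 RPKM elsewhere. E2f4 and Nfyb, of DREAM and NF-Y, were at 17.4 and 6.51 RPKM in WT library 2, with 21.7 to 33.8 RPKM and 7.23 to 10.9 RPKM elsewhere. None of the 15 passed between genotypes (median 0.17, and −0.02 without WT library 2).

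The list of subunits of the APC/C, the complex that Cdc20 and Ube2c serve, had no such gap. It also held Fzr1 and Ube2s, which are partners of the complex and not subunits. WT library 2 was lowest for 5 of 14, against 36.8% of all genes. It was more than 10-fold under the others for 0, against 1.35% of all genes, and the median ratio was 1.22. Anapc2, the cullin of the complex, was at 46.1, 64.0 and 47.5 RPKM in the WT group and 35.7, 39.6 and 28.6 RPKM in the CKO group, with no overlap (limma adjusted p = 0.496). Anapc7 was at 13.6, 14.0 and 13.8 RPKM in the WT group and 18.1, 17.6 and 16.4 RPKM in the CKO group, with CKO higher and no overlap (limma adjusted p = 0.607). These were the only genes of the 14 without overlap, 1 in each direction, against 16.7% of all genes. Ube2s, which extends ubiquitin chains on APC/C substrates, was at 58.2 to 135 RPKM in the WT group and 107 to 243 RPKM in the CKO group. For this gene WT library 2 was 1.74-fold under the lowest passage 5 library, the widest gap of the list.

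Genes of cell cycle arrest had no common direction. Cdkn1a, the p53 target p21, was at 126, 197 and 126 RPKM in the WT group and 120, 175 and 225 RPKM in the CKO group. CKO library 3, low in mitotic genes, and WT library 2 were the 2 highest. Cdkn2a, the locus of p16 and ARF, was at 34.2, 55.1 and 33.4 RPKM in the WT group and 26.8, 87.1 and 23.5 RPKM in the CKO group, highest in CKO library 2. Ccng1 and Gadd45a, both p53 targets and 2 of the 3 named for the lowest p, were the 2 of 10 genes (against 16.7% of all genes) with groups that did not overlap, with 68.2 to 106 against 111 to 184 RPKM and 21.3 to 33.5 against 35.0 to 83.6 RPKM (WT against CKO, limma adjusted p = 0.511 and 0.593). Cdkn2d, an inhibitor of CDK4 and CDK6, was at 8 to 11.5 RPKM in the WT group and 6.09 to 11 RPKM in the CKO group. None of the 10 genes passed (median 0.07, and 0.14 without WT library 2), and WT library 2 was the lowest for 3, against 36.8% of all genes.

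**Figure D5:**
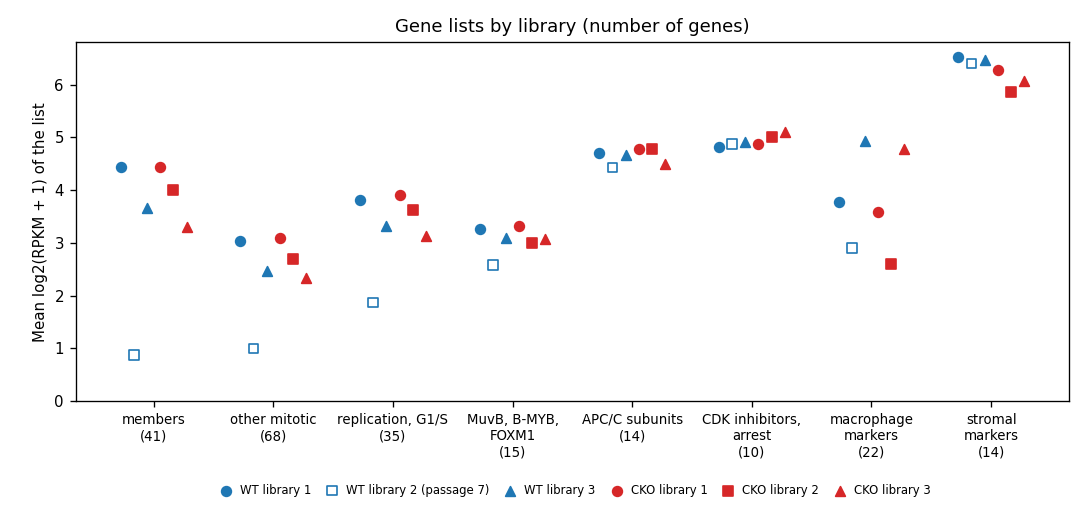
Mean log2(RPKM + 1) of each gene list in each library, WT in blue and CKO in red, with an open square for WT library 2 (passage 7). WT library 2 lies at 0.88 for the 41 mitotic genes against 3.30 to 4.44 in the other libraries, is closer to the others for replication genes (1.87 against 3.13 to 3.91), and lies among them for arrest genes.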

How the data were processed

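Whole-transcriptome RNA was measured in 6 libraries. Per the labels' protocols, TRIzol extracts went into stranded mRNA libraries for Illumina sequencing. The submitters' processing notes name the build mm9. The aligner, counting tool, annotation and use of strand are not stated, so overlapping and near-identical genes may share reads, and no coordinates of that build are given. The authors deposited 1 value per gene and library, and per the file headers it is only called expression. These deposited values are RPKM, reads scaled by the authors to gene length and library total. That unit was read from the values: a whole total for each library, joined with a whole length for each gene, turned 14989 of 15063 genes (99.51%) into whole reads within 0.01 read or a relative error of 1e-07, against 0 of 500 shuffled genes. The recovered reads and lengths are those cited in the text.

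The 11085 genes that reached 1 RPKM in 3 or more libraries, all 41 mitotic genes among them, were tested on log2(RPKM + 1) by limma 3.58.1 in R 4.3.3 with trend and robust moderation and genotype as the only term. Two-sided p-values were adjusted (Benjamini-Hochberg) over all genes tested, and 0.05 was the threshold. On this scale, differences of low genes are understated. The fit was run on simulated reads, drawn without an outlying library or a length trend, so that run does not show its power in these libraries. The 41 genes, the other lists and the rules were chosen with earlier results of these data known. Values by library are given for the 2 genes with the highest mean in each role, and for up to 3 genes with the lowest p in each other list, plus Foxm1, Mybl2, Cdkn1a and Cdkn2a. Any other gene was named after its values were seen. Promoters came from RefSeq, matched by symbol. Alternatives were leaving out each library, a replicate block, averaging WT libraries 1 and 2, another pseudocount, other filters and scalings, plain moderation and limma-voom on the recovered reads. Removal of the length trend, and leaving out WT library 2 and CKO library 2 together, were chosen after seeing the data.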

Additional observations from a re-analysis of the deposited data

How the results depend on the processing

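No mitotic gene passed the threshold under any of the 18 alternatives (36 of the 41 were tested with a filter at RPKM 5, and 41 in the others). The median log2 difference of the mitotic genes was 0.88 in the reported fit and ranged from −0.17 to 1.65 when libraries were left out, with WT library 2 alone turning its sign, also with the length trend removed or CKO library 2 left out as well. In the remaining alternatives it stayed between 0.71 and 1.5. The number of genes called over all genes, 1 in the reported fit, was 0 to 24 when libraries were left out (24 without WT library 1, 17 without CKO library 1). It was 50 with WT libraries 1 and 2 averaged, 4 with a filter at RPKM 5, 2 with median centring, quantile normalization or the length trend removed, and 0 with the pseudocount of 0.1, no filter, limma-voom or the replicate block, and the cause of these shifts was not tested.

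When libraries were left out, the log2 difference ranged from −0.02 to 2.17 for Ccnb1, −0.51 to 2.04 for Birc5, −0.38 to 2.03 for Plk1, −0.03 to 2.80 for Ube2c and −0.04 to 0.41 for Bub3. It ranged from −0.23 to 2.14 for Cenpa, −0.44 to 1.66 for Nuf2, −0.27 to 2.01 for Kif20a, −0.39 to 1.57 for Kif23 and −0.09 to 1.28 for Ckap2. It ranged from −0.19 to 2.09 for Prc1, −0.46 to 1.05 for Racgap1, −0.01 to 2.42 for Top2a and −0.44 to 1.48 for Cdca3. Each lower end fell in a fit without WT library 2. Cks2 (0.03 to 1.65) and Tpx2 (0.05 to 2.29) kept their sign.

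Whether the replicate numbers pair the libraries is not settled. Deviations from the group means correlated at 0.198, 0.014 and −0.019 between libraries of the same number. Between libraries of different numbers they correlated at −0.230 to 0.206. The WT means include WT library 2, which limits what these values can show. On the values themselves, WT library 1 and CKO library 1 each had 0.972 as their highest correlation with any other library. With the replicate block, 0 genes were called and the median of the mitotic genes was 0.88. Depth limits the passage 7 values, of which the one with the fewest reads, Bub1, rested on 7. With 2 WT libraries left at passage 5, intervals of about 1 log2 unit on either side allow differences in both directions.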
